A study of Mus musculus with 12 samples.

Results

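The naive pluripotency transcription factors examined here are Esrrb, Tfcp2l1, Klf2, Klf5, Tbx3, Nr0b1, Nr5a2, Zfp42 and Prdm14, together with Tcl1, a signalling co-factor of the same state. They were taken by gene symbol, which gave 10 of the 24015 gene rows of each file. All 10 passed the filter on low counts that left 14356 genes in the tests. Their levels were read in 12 RNA libraries of mouse embryoid bodies, the aggregates that embryonic stem cells form when they differentiate in suspension.

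The 4 groups, of 3 libraries each, were Trim33-deficient and control bodies on day 2, and Trim33-deficient and control bodies on day 2.5. By their labels, the lines were derived from outbred embryos that carried the Trim33-flox allele on both chromosomes and the UbcCreERT2 transgene, a Cre recombinase that works when 4OH-Tamoxifen is present and is driven by a promoter active in most cell types. They grew feeder-free in medium with LIF and 2i, at passage 8 to 10, and 4OH-Tamoxifen was given on day 1, at 24 hours, to delete Trim33, a chromatin-binding regulator of TGF-beta family signalling. The labels call the control genotype wildtype although the protocol gives all lines the flox allele and the transgene, and whether control cultures received tamoxifen is not stated. The labels speak of independent pairs and do not say how many lines or clones lie behind the 3 replicates, so the p-values rest on the spread among these libraries only, which may be partly technical.

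Naive pluripotency is the ground state of mouse embryonic stem cells, held by a network of transcription factors that activate each other and each other's genes. LIF, acting through STAT3, and the 2 inhibitors of the 2i medium, which block MEK and GSK3, keep the network on. When these are withdrawn the naive factors are switched off within the first days and the cells pass towards the primed state of the later epiblast, while the core factors Oct4 and Sox2 stay on.

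Gene-assigned counts ran between 10066338 and 16529627 per library. Levels are given below as CPM, counts scaled by TMM-adjusted library sizes, and a count of 3 equals 0.179 to 0.318 CPM, which covers counting error only. CPM does not correct for gene length, so levels are compared between libraries and not between genes. Trim33 itself lay at 60.5 to 69.6 CPM in Trim33-deficient and 261 to 277 CPM in control libraries on day 2, and at 54.4 to 62.8 CPM in Trim33-deficient and 239 to 264 CPM in control libraries on day 2.5. 3 libraries stood apart. In replicate 1 of the day 2 Trim33-deficient bodies Rn45s, a precursor of ribosomal RNA, made up 7.87% of all counts, and in replicate 2 of the day 2.5 controls 11.95%, with at most 1.67% elsewhere. Hypoxia and glycolysis genes exceeded their mean over libraries by 0.67 (log2) in replicate 2 of the day 2 controls and by 0.34 in replicate 2 of the day 2.5 controls. Where leaving out these 3 libraries changed the call of one of the 10 genes, both results are given.

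For 7 of the 10 genes RefSeq promoters of build GRCm38.p6 were at hand, as 9 windows that run 250 bases before to 50 bases after an annotated start. Windows of 4 genes are shown. Esrrb and Tfcp2l1 had the smallest adjusted p of the 10 on both days. Zfp42 is the classic reporter gene of the naive state, and Nr0b1 fell furthest with time in control bodies. Each window is written 5′ to 3′ on the strand of the gene, and capitals mark matches, on either strand, to one of the 7 motifs searched.
Esrrb, chr12:86360867-86361166, plus strand: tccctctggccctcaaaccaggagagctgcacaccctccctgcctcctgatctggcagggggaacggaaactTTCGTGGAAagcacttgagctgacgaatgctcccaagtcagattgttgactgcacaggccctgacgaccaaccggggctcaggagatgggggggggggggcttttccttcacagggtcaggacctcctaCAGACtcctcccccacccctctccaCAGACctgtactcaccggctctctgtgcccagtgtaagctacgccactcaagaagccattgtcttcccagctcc
Tfcp2l1, chr1:118627695-118627994, plus strand: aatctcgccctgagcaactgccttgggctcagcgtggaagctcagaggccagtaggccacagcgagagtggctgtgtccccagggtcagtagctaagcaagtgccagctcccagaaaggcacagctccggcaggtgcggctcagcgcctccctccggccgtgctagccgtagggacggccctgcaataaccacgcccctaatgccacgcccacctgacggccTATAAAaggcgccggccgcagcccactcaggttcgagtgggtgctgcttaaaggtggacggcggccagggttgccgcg
Zfp42, chr8:43306960-43307259, minus strand: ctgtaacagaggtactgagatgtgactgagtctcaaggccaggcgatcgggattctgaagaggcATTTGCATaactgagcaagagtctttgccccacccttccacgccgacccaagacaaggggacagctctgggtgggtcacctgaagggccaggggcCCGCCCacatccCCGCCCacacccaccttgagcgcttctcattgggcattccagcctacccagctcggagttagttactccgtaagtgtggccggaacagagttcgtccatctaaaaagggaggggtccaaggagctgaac
Nr0b1, chrX:86191525-86191824, plus strand: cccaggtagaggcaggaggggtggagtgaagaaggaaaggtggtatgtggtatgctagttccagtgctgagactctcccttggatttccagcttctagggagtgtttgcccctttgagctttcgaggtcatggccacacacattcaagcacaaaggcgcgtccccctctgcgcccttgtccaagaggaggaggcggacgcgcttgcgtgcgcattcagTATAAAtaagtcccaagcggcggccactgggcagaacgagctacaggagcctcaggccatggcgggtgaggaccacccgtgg

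The motifs were the STAT element TTCNNNGAA, the SMAD element CAGAC, the TCF/LEF element ATCAAAG, the ESRRB element TCAAGGTCA, the GC box GGGCGG bound by Kruppel-like factors, the octamer ATGCAAAT of Oct4 and the TATA box TATAAA. The Esrrb window shown held the only STAT match among the 9 windows, 178 bases before the start. It also held a pair of SMAD matches at -49 and -24. The other Esrrb window, chr12:86421394-86421693, is not shown and held no match to any of these motifs. Tfcp2l1 and Nr0b1 each held a TATA box close to the start, at -28 and -32. Zfp42 held the octamer on the opposite strand at -186 and GC boxes at -91 and -79. Of all 32851 windows of the same length, 8.30% held the STAT, 49.6% the SMAD, 3.73% the TCF/LEF, 0.423% the ESRRB, 35.7% the GC box, 1.74% the octamer and 13.6% the TATA letters. None of the 9 windows held the TCF/LEF or the ESRRB letters. The octamer and the STAT element overlap no other motif here, and a match describes letters, not a bound site.

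The first comparison asked how the naive factors stood 1 day after tamoxifen. On day 2, 4 of the 10 rose in Trim33-deficient bodies, Klf5, Esrrb, Tfcp2l1 and Klf2, by 1.58-fold to 2.55-fold, and the other 6 did not pass the test. In the background of all 14356 genes 5.94% rose and 3.90% fell, and 9.84% passed in either direction. 6 of the 10 had Trim33-deficient libraries all above the control libraries, against 14.9% of all genes, and these were the 4 that rose with Tbx3 and Zfp42. By the edgeR quasi-likelihood test 0 fell, and 0 fell at an unadjusted p under 0.05 or by DESeq2. The median log2 fold change of the 10 was 0.64, beside -0.0049 over all genes, and 0.41 beside 0.0083 without the 3 libraries that stood apart. In bulk RNA, fewer cells of a type and less RNA per cell cannot be told apart, here and in all that follows.

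By day 2.5 all 10 had risen in Trim33-deficient bodies, by 0.58 on the log2 scale for Tcl1 to 2.23, or 4.68-fold, for Esrrb, with no overlap between the groups for any of them. The background was large at this time: 22.0% of all genes rose and 20.7% fell, 42.8% passed in either direction, and 26.7% had Trim33-deficient libraries all above the control libraries. By edgeR's quasi-likelihood test 0 of the 10 fell, and 0 at an unadjusted p under 0.05 or by DESeq2, which called 9 that rose, all but Tcl1. The median log2 fold change of the 10 was 1.77, beside -0.0096 over all genes. Ranked among the 14356 genes by size of rise, Esrrb stood 57th, Prdm14 80th, Tfcp2l1 83rd, Klf5 120th and Klf2 132nd, and Tcl1 1797th.

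**Figure D1:**
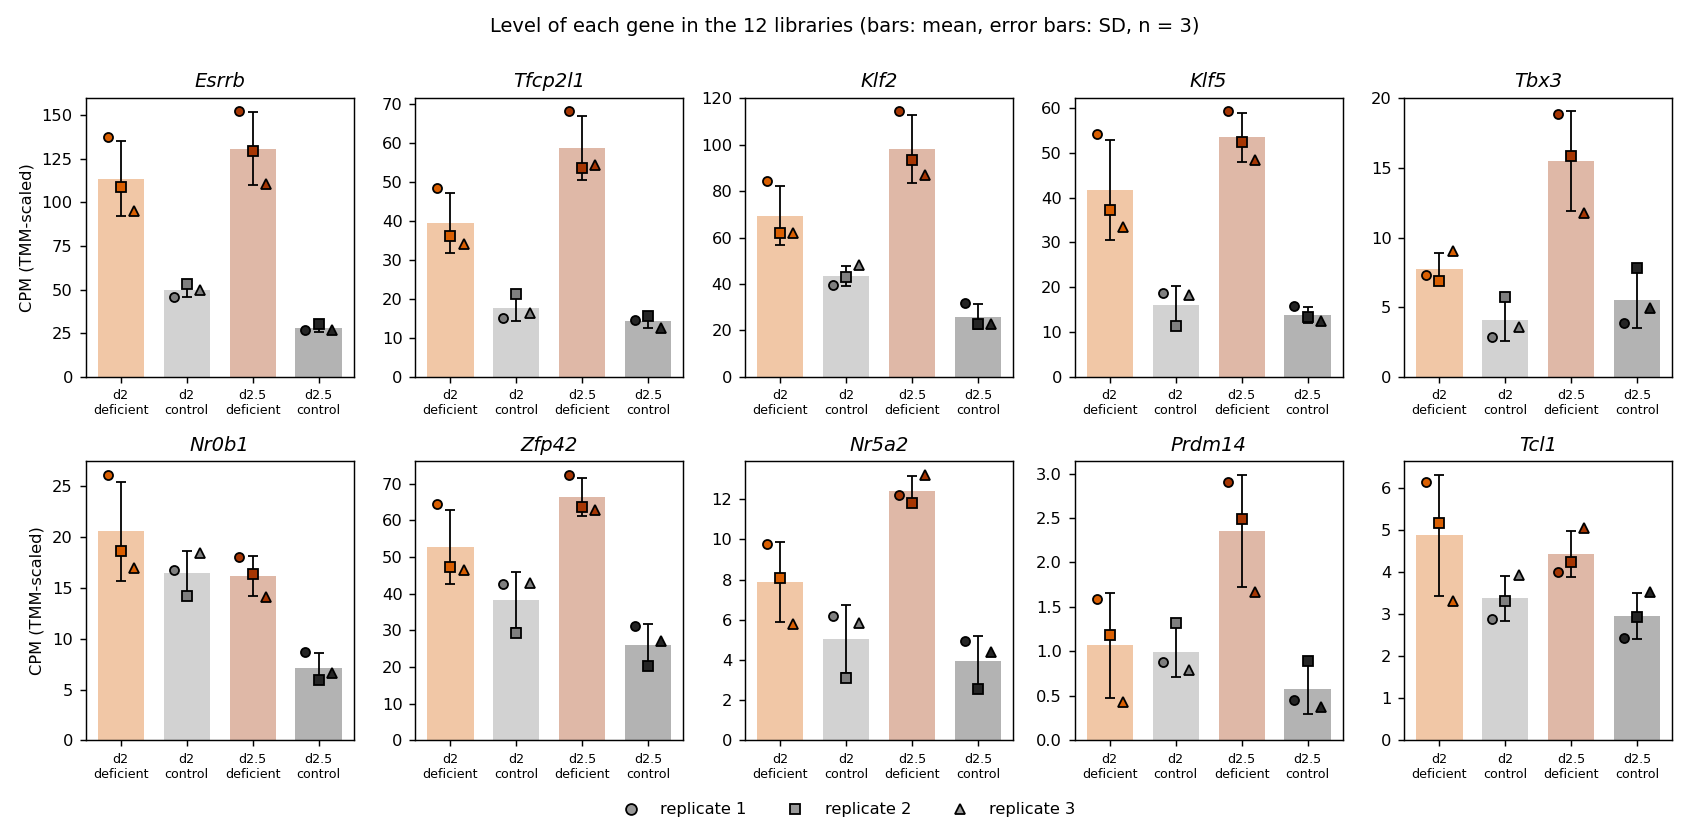
Level of each of the 10 genes (CPM, TMM-scaled, vertical axis from 0) in Trim33-deficient and control libraries on day 2 and day 2.5; symbols are replicates, bars the mean of 3 libraries and error bars the SD. On day 2.5 the Trim33-deficient libraries lie above the control libraries in all 10 panels, as with Esrrb at 130.8 ± 21.0 CPM against 28.0 ± 2.14 CPM.

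Esrrb, an orphan nuclear receptor that the GSK3 branch of the 2i medium keeps on by relieving its repression by Tcf7l1, had the largest rise of the set on day 2.5. On day 2 it lay at 137, 109 and 95.02 CPM in the Trim33-deficient libraries and at 45.9, 53.3 and 49.8 CPM in the control libraries. On day 2.5 it lay at 152, 129.5 and 110.5 CPM in the Trim33-deficient libraries and at 26.8, 30.5 and 26.8 CPM in the control libraries. The groups were far apart on both days, and the lowest Trim33-deficient library of day 2.5 still lay above every control library of day 2. The log2 fold change was 1.19 ± 0.14 (SE) on day 2 and 2.23 ± 0.15 on day 2.5, with edgeR quasi-likelihood adjusted p of 0.000798 and 1.10e-06. Both calls held in all 22 alternative analyses, among them the one without the 3 libraries that stood apart (1.09 and 2.29).

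Tfcp2l1, a Grainyhead-family factor induced by LIF through STAT3, showed a like pattern. It stood at 48.5, 36.1 and 34.1 CPM in Trim33-deficient libraries on day 2, against 15.2, 21.2 and 16.3 CPM in control libraries. For day 2.5 the values were 68.3, 53.6 and 54.5 CPM in Trim33-deficient libraries and 14.5, 15.7 and 12.5 CPM in control libraries. Its control libraries overlapped between the days, whereas the Trim33-deficient libraries of day 2.5 all lay above those of day 2. The rise was 2.23-fold on day 2 (log2 1.15 ± 0.16 SE, edgeR adjusted p = 0.00109) and 4.15-fold on day 2.5 (2.05 ± 0.16, edgeR adjusted p = 1.10e-06), and both calls held in all 22 alternatives. A small nuclear RNA gene lies within an exon of Tfcp2l1 on the same strand and has no row of its own in the files.

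Of the Kruppel-like factors, Klf5, which is induced by LIF and STAT3, had the largest rise of the 10 on day 2 with all libraries. Klf5 counted 54.3, 37.2 and 33.4 CPM in day 2 Trim33-deficient libraries, against 18.7, 11.4 and 18.2 CPM in control libraries. On day 2.5 its Trim33-deficient libraries had 59.4, 52.5 and 48.5 CPM, and its control libraries 15.8, 13.2 and 12.5 CPM. The groups were separate on both days, and neither genotype's libraries were separate between the days. Its log2 fold change was 1.35 ± 0.21 on day 2 and 1.95 ± 0.21 on day 2.5 (SE; edgeR adjusted p = 0.00377 and 3.15e-05), calls that held in all 22 alternatives, with 0.94 on day 2 without the 3 libraries that stood apart. Without those 3 libraries the day 2 value of Tbx3, 1.31, was larger than that of Klf5.

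Klf2, the Kruppel-like factor whose protein MEK and ERK signalling marks for degradation, lay at 84.3, 62.1 and 62.0 CPM in Trim33-deficient and 39.5, 42.9 and 48.2 CPM in control libraries on day 2. On day 2.5 it lay at 115, 93.3 and 86.8 CPM in Trim33-deficient and 32.0, 22.9 and 22.9 CPM in control libraries. It was the 1 gene of the 10 whose 4 groups all lay apart from their neighbours in level, with day 2.5 Trim33-deficient bodies highest and day 2.5 control bodies lowest. The rise was 1.58-fold on day 2 (log2 0.66 ± 0.16 SE, edgeR adjusted p = 0.0274) and 3.77-fold on day 2.5 (1.92 ± 0.17, edgeR adjusted p = 7.18e-06). Its day 2 call was lost in 6 of 22 alternatives, including the fit without the 3 libraries that stood apart (0.51, edgeR adjusted p = 0.177, within a range of 0.000284 to 0.177 over the 22), and its day 2.5 call in none of them.

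Tbx3, a T-box factor that LIF supports through the PI3K branch, had levels of 7.32, 6.88 and 9.04 CPM in day 2 Trim33-deficient libraries, against 2.88, 5.72 and 3.54 CPM in control libraries. On day 2.5 they were 18.9, 15.9 and 11.8 CPM in Trim33-deficient libraries and 3.87, 7.82 and 4.91 CPM in control libraries. No Trim33-deficient library fell to the control range on either day. Its day 2 log2 fold change of 0.94 ± 0.29 did not pass (edgeR adjusted p = 0.0609), although it passed in 7 of 22 alternatives, and that of 1.51 ± 0.26 on day 2.5 did (edgeR adjusted p = 0.000484). Without the 3 libraries that stood apart the day 2 value was 1.31, with an edgeR adjusted p of 0.00511, the lowest of the 22, which reached up to 0.182. An antisense gene, Tbx3os1, shares exon sequence with Tbx3 and has no row, and the strand setting of the counting is not given in the sources used here, so reads of the 2 genes cannot be told apart.

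**Figure D2:**
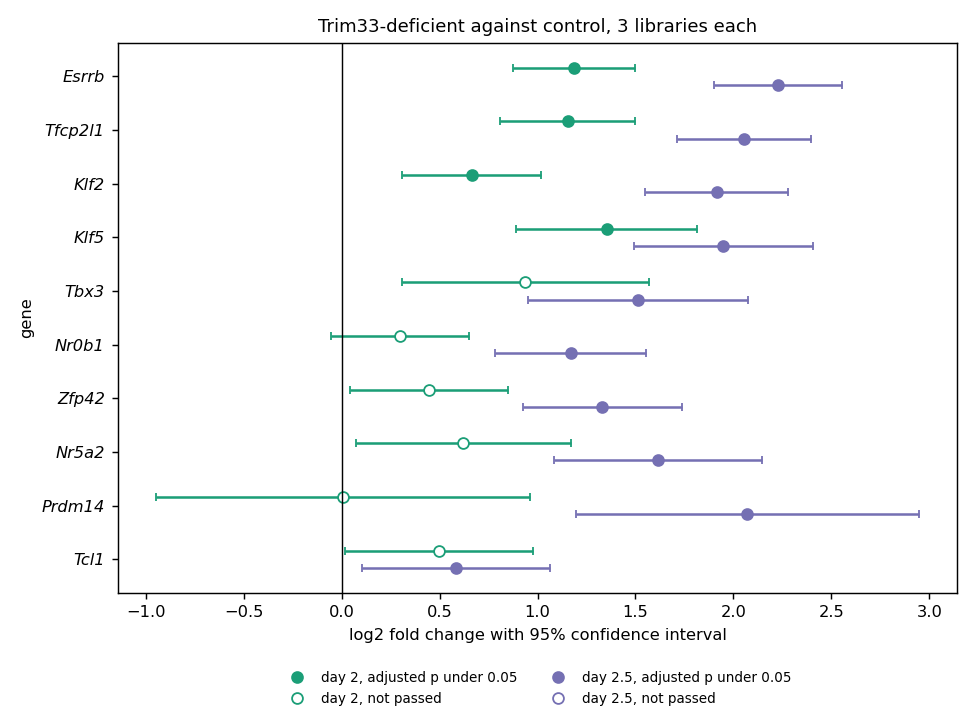
Log2 fold change of Trim33-deficient against control bodies for each gene with its 95% confidence interval, day 2 above day 2.5 within each gene; filled points have an adjusted p under 0.05. All 10 points of day 2.5 are filled and lie between 0.58 and 2.23, and 4 of the 10 points of day 2 are filled.

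Nr0b1 and Nr5a2 are orphan nuclear receptors. Nr0b1, also called Dax1, lacks the usual DNA-binding domain and acts as a partner of Oct4 and Esrrb. It lay at 26.1, 18.6 and 17.0 CPM in Trim33-deficient and 16.7, 14.2 and 18.4 CPM in control libraries on day 2, and at 18.0, 16.3 and 14.1 CPM in Trim33-deficient and 8.73, 5.95 and 6.61 CPM in control libraries on day 2.5. The groups overlapped on day 2, and on day 2.5 it was the control libraries that lay far from the other 9. The log2 fold change was 0.30 ± 0.16 on day 2 (SE; edgeR adjusted p = 0.282), or 0.02 without the 3 libraries that stood apart, and 1.17 ± 0.18 on day 2.5 (edgeR adjusted p = 0.000145). Nr0b1 is on the X chromosome. The Y-linked genes Ddx3y and Uty had 0 counts in all 12 libraries, and Eif2s3y and Kdm5d reached at most 0.073 and 0.063 CPM. Xist and Tsix, also on the X chromosome, both rose on day 2.5 and both fell with time in control bodies. Any link of these to the level of Nr0b1 was not tested.

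Nr5a2, also called Lrh-1, binds control regions of Oct4 and helps to keep Oct4 on in epiblast. Its levels were 9.76, 8.06 and 5.78 CPM in Trim33-deficient libraries on day 2, against 6.17, 3.09 and 5.82 CPM in control libraries. On day 2.5 they were 12.2, 11.8 and 13.2 CPM in Trim33-deficient libraries, against 4.92, 2.58 and 4.41 CPM in control libraries. One Trim33-deficient library reached into the control range on day 2, and none did on day 2.5. Its day 2 log2 fold change of 0.62 ± 0.26 did not pass (SE; edgeR adjusted p = 0.147) and was 0.21 without the 3 libraries that stood apart, and that of 1.61 ± 0.25 on day 2.5 did (edgeR adjusted p = 0.000151).

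Zfp42, also called Rex1, encodes a zinc finger protein related to Yy1 and is the gene most used to report the naive state. On day 2 it had 64.4, 47.3 and 46.3 CPM in Trim33-deficient libraries and 42.8, 29.4 and 42.8 CPM in control libraries. On day 2.5 it had 72.5, 63.7 and 62.9 CPM in Trim33-deficient libraries and 31.2, 20.2 and 27.1 CPM in control libraries. The groups did not overlap on either day, with a narrow gap on day 2 and a wide one on day 2.5. The log2 fold change was 0.45 ± 0.18 on day 2 (SE; edgeR adjusted p = 0.156), or 0.13 without the 3 libraries that stood apart, and 1.33 ± 0.18 on day 2.5 (edgeR adjusted p = 0.000192).

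Prdm14, a PR-domain protein that represses FGF receptor signalling and de novo DNA methylation in embryonic stem cells and germ cells, was the gene of the set with the fewest reads, 6 to 40 per library. On day 2 its counts were 15, 19 and 7 in Trim33-deficient and 11, 17 and 10 in control libraries, or 1.07 ± 0.59 and 0.994 ± 0.28 CPM (SD, n = 3 each). On day 2.5 its counts were 40, 34 and 28 in Trim33-deficient and 7, 10 and 6 in control libraries, or 2.35 ± 0.63 and 0.575 ± 0.27 CPM (SD, n = 3 each). The day 2 groups covered the same range, and the day 2.5 groups were separate, with an exact Poisson interval of 1.11 to 2.41 CPM for the lowest Trim33-deficient library and 0.426 to 1.63 CPM for the highest control library. The log2 fold change was 0.0065 ± 0.45 on day 2 (95% interval -0.95 to 0.96, edgeR adjusted p = 0.996) and 2.07 ± 0.41 on day 2.5 (edgeR adjusted p = 0.000858). Its day 2.5 call held in all 22 alternatives.

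Tcl1 does not bind DNA itself. It binds the kinase Akt and raises its activity, and its gene is a known target of Esrrb and Oct4. Its rise on day 2.5 was the smallest of the 10. On day 2 Tcl1 had 6.15, 5.19 and 3.32 CPM in Trim33-deficient libraries and 2.88, 3.33 and 3.94 CPM in control libraries. On day 2.5 the values were 4.00, 4.24 and 5.06 CPM in Trim33-deficient libraries and 2.43, 2.93 and 3.53 CPM in control libraries. The groups overlapped on day 2 and were separate by a narrow gap on day 2.5. The log2 fold change was 0.50 ± 0.23 on day 2 (SE; edgeR adjusted p = 0.188) and 0.58 ± 0.23 on day 2.5 (edgeR adjusted p = 0.0485), and the second call was lost in 11 of 22 alternatives, whose adjusted p lay between 0.0259 and 0.165. Its relatives Tcl1b1, Tcl1b3, Tcl1b4 and Tcl1b5 were at 0 in all day 2 Trim33-deficient libraries, and all 5 Tcl1b genes in the other 3 groups.

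The 2 collection days were then compared within each genotype. In control bodies 3 of the 10 fell between day 2 and day 2.5, Nr0b1, Esrrb and Klf2, and 7 did not pass, with 7.91% of all genes falling and 8.20% rising. Nr0b1 averaged 7.10 ± 1.45 CPM on day 2.5 and 16.5 ± 2.11 CPM on day 2 (SD, n = 3 each), a 2.30-fold fall (log2 -1.20 ± 0.18 SE, edgeR adjusted p = 0.000684). Esrrb averaged 28.0 ± 2.14 CPM on day 2.5 and 49.7 ± 3.70 CPM on day 2 (log2 -0.83 ± 0.15, edgeR adjusted p = 0.00445), and Klf2 25.9 ± 5.24 CPM on day 2.5 and 43.5 ± 4.37 CPM on day 2 (-0.74 ± 0.17, edgeR adjusted p = 0.0144). These were also the 3 whose day 2.5 libraries all lay below those of day 2, against 15.0% of all genes. The falls of Nr0b1 and Esrrb held in all 21 alternatives and that of Klf2 in 17, the exceptions being the fits without replicate 3 of day 2, without replicate 2 or 3 of day 2.5, and without the 3 libraries that stood apart (log2 -0.68, edgeR adjusted p = 0.0893). Without those 3 libraries Zfp42 (-0.55, edgeR adjusted p = 0.000171) and Klf5 (-0.39, edgeR adjusted p = 0.0476) fell, so that the count was 4. With all libraries the value of Klf5 was -0.22 (edgeR adjusted p = 0.564). By edgeR 0 rose, and 0 at an unadjusted p under 0.05 or by DESeq2, where Zfp42 (log2 -0.54 ± 0.19, edgeR adjusted p = 0.0810) also fell. The 1 gene with a positive value was Tbx3 (0.41 ± 0.30, edgeR adjusted p = 0.388).

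In Trim33-deficient bodies over the same interval 4 of the 10 rose, Prdm14, Tbx3, Tfcp2l1 and Klf2, 0 fell and 6 did not pass, with 9.09% of all genes rising and 6.93% falling. Tbx3 averaged 15.5 ± 3.58 CPM on day 2.5 and 7.74 ± 1.14 CPM on day 2 (SD, n = 3 each; log2 0.99 ± 0.25 SE, edgeR adjusted p = 0.0176). Tfcp2l1 averaged 58.8 ± 8.27 CPM on day 2.5 and 39.6 ± 7.79 CPM on day 2 (0.59 ± 0.14, edgeR adjusted p = 0.0159). For Klf2 the change was 0.51 ± 0.15 (edgeR adjusted p = 0.0455) and for Prdm14 1.21 ± 0.37 (edgeR adjusted p = 0.0362). These 4 and Nr5a2 had day 2.5 libraries all above those of day 2, against 19.4% of all genes. Esrrb, at 0.21 ± 0.13 (edgeR adjusted p = 0.324), and Nr0b1, at -0.33 ± 0.16 (edgeR adjusted p = 0.188), did not pass. By edgeR 0 fell, and 0 at an unadjusted p under 0.05 or by DESeq2, which called Nr5a2 in place of Prdm14 among the 4 that rose. The count that passed changed with single libraries: it was 0 without replicate 2 of day 2 or replicate 1 of day 2.5 in Trim33-deficient bodies, and 1 without replicate 3 of day 2 or replicate 2 of day 2.5. In the fits with 0 the values kept their sign, at 0.46 and 0.52 for Tfcp2l1, 0.38 and 0.43 for Klf2, 0.82 and 0.90 for Tbx3 and 1.03 and 1.38 for Prdm14. Without the 3 libraries that stood apart 7 rose, with Klf5 (0.60), Zfp42 (0.50) and Nr5a2 (0.85) added. With all libraries these values were 0.38, 0.35 and 0.68 (edgeR adjusted p = 0.204, 0.214 and 0.0585). Over all genes more passed as well without the 3 libraries, 3741 in either direction against 2300 with all libraries.

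**Figure D3:**
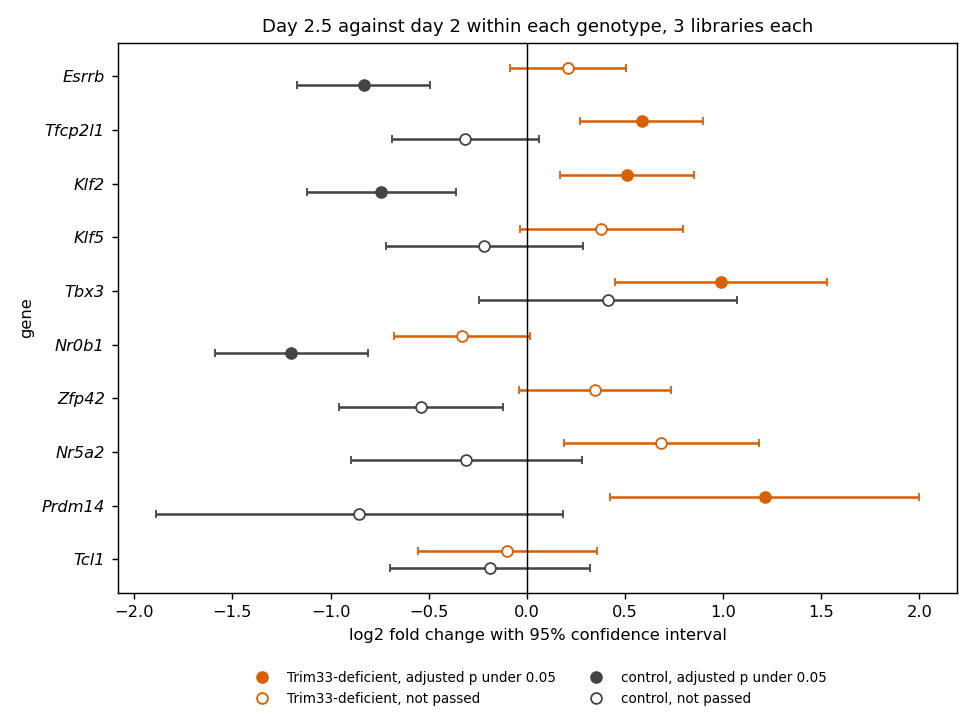
Log2 fold change of day 2.5 against day 2 for each gene with its 95% confidence interval, Trim33-deficient bodies above control bodies within each gene; filled points have an adjusted p under 0.05. In control bodies 9 of 10 points lie below 0 and in Trim33-deficient bodies 8 of 10 lie above it.

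Whether the effect of Trim33 loss differed between the days was tested as an interaction, which uses the same 12 libraries as the 4 comparisons above and adds no independent data. Klf2, Esrrb and Tfcp2l1 passed, 7 did not, and 2.77% of all genes passed with a positive value, 4.01% in either direction. The difference between the day 2.5 and the day 2 effect was 1.25 ± 0.23 for Klf2 (log2, SE; edgeR adjusted p = 0.0179), 1.04 ± 0.20 for Esrrb (edgeR adjusted p = 0.0213) and 0.90 ± 0.23 for Tfcp2l1 (edgeR adjusted p = 0.0441). Prdm14 had the largest estimate and the widest error, 2.07 ± 0.62 (edgeR adjusted p = 0.0685). All 10 estimates were positive, with a median of 0.89 beside -0.0035 over all genes, and Tcl1 the smallest at 0.09 ± 0.32. For the 7 that did not pass a change of the effect with time was not shown. By edgeR 0 passed with a negative value, against 1.24% of all genes, and 0 did so at an unadjusted p under 0.05 or by DESeq2. The count of 3 dropped to 0 when replicate 2 of the day 2 Trim33-deficient bodies, or replicate 3 of either control group, was left out. It dropped to 1 without replicate 3 of the day 2 Trim33-deficient bodies, and was 8 without the 3 libraries that stood apart. Added were Klf5 (0.60 with all libraries, 0.985 without the 3), Nr0b1 (0.87 and 1.05), Zfp42 (0.88 and 1.06), Nr5a2 (0.99 and 1.21) and Prdm14 (2.07 and 2.50). Over all genes more passed as well without the 3 libraries, 1967 in either direction against 575 with all libraries. In the 3 fits with 0 the estimates lay between 1.16 and 1.18 for Klf2, 1.01 and 1.04 for Esrrb, and 0.80 and 0.95 for Tfcp2l1.

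Set side by side, the level of most naive factors in day 2.5 Trim33-deficient bodies was above that of younger control bodies. The ratio of the day 2.5 Trim33-deficient to the day 2 control mean was 3.83 for Tbx3, 3.35 for Tfcp2l1 and 3.32 for Klf5. It was 2.63 for Esrrb and 1.73 for Zfp42. For 9 of the 10 the day 2.5 Trim33-deficient libraries all lay above the day 2 control libraries, against 26.8% of all genes. They lay all below for 25.6% of all genes. The smallest ratio of the 9 was that of Tcl1, 1.31. Its lowest day 2.5 Trim33-deficient library had 4.00 CPM and its highest day 2 control library 3.94 CPM. The exact Poisson intervals of these libraries, 3.01 to 5.21 and 2.92 to 5.19 CPM, overlapped. Nr0b1 was the exception, with 16.2 ± 1.97 CPM in day 2.5 Trim33-deficient bodies and 16.5 ± 2.11 CPM in day 2 control bodies (SD, n = 3 each), a ratio of 0.98 with overlapping libraries. In 7 of the 10 the order of the group means was day 2.5 Trim33-deficient, day 2 Trim33-deficient, day 2 control, day 2.5 control. Of these 7, only Klf2 had no overlap between any groups next to each other in level. The share of all genes with this order was not counted. Tbx3 had the 2 control groups the other way round, with overlapping libraries, Tcl1 the 2 Trim33-deficient groups, also overlapping, and Nr0b1 was highest in day 2 Trim33-deficient bodies.

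Within the Trim33-deficient groups most of the 10 genes ranked the libraries alike, and within the control groups they split. In day 2 Trim33-deficient bodies replicate 1, which is rich in Rn45s, was highest for 9 of the 10 and replicate 3 lowest for the same 9, all but Tbx3, where replicate 1 was highest for 38.7% of all genes and replicate 3 lowest for 30.0%. On day 2.5 Trim33-deficient replicate 1 was highest for 8 of the 10 and for 34.0% of all genes, and replicate 3 lowest for 7 of the 10 and for 34.9% of all genes. In control bodies replicate 2 was highest for Esrrb, Tfcp2l1, Tbx3 and Prdm14 and lowest for Nr0b1, Zfp42 and Nr5a2 on both days. These counts are near the shares over all genes. Control replicate 2 was highest for 39.7% of all genes and lowest for 39.3% on day 2, and for 38.6% and 37.6% on day 2.5. Replicate 2 is also the control library of each day with raised hypoxia and glycolysis genes, and the part of that difference in these ranks was not tested. Averaged over the 10, log2 CPM centred per gene lay at 0.69, 0.33 and 0.08 in day 2 Trim33-deficient libraries, at -0.39, -0.39 and -0.28 in day 2 controls, at 0.97, 0.78 and 0.66 in day 2.5 Trim33-deficient libraries and at -0.76, -0.81 and -0.88 in day 2.5 controls.

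By the root mean square distance between centred log2 CPM profiles over the 12 libraries, the closest pairs were Zfp42 with Nr5a2 (0.248) and Esrrb with Tfcp2l1 (0.253). Measured against the mean profile of the other genes of the set, Klf2 lay nearest (0.19) and Tbx3 farthest (0.57). The spread over libraries was largest for Esrrb (SD 0.95 on the log2 scale) and smallest for Tcl1 (0.38). Outside the set, the 6 genes of at least 1 CPM whose profile lay nearest to that mean were Icam1 (0.131), a cell adhesion molecule, Gpa33 (0.137), a surface glycoprotein, Mvp (0.144), the major vault protein, Afap1 (0.156), an actin filament-associated protein, Sdk2 (0.1597), an adhesion molecule, and Zfp229 (0.167), beside a median distance of 0.671 over 13476 genes. Icam1 averaged 73.0 ± 11.3 CPM in Trim33-deficient and 22.2 ± 2.10 CPM in control bodies on day 2.5 (SD, n = 3 each). Nearest to single genes were Inpp5d to Esrrb (0.186), Cyb5r2 to Tfcp2l1 (0.174), Ptprv to Klf2 (0.0912), Arid5b to Klf5 (0.149), Gpnmb to Tbx3 (0.239), Morc1 to Nr0b1 (0.0680), Epha2 to Zfp42 (0.0944), Tgm1 to Nr5a2 (0.164), Ttll6 to Prdm14 (0.417) and Plekhd1 to Tcl1 (0.176). These distances describe the 12 libraries, which share the same 4 groups.

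**Figure D4:**
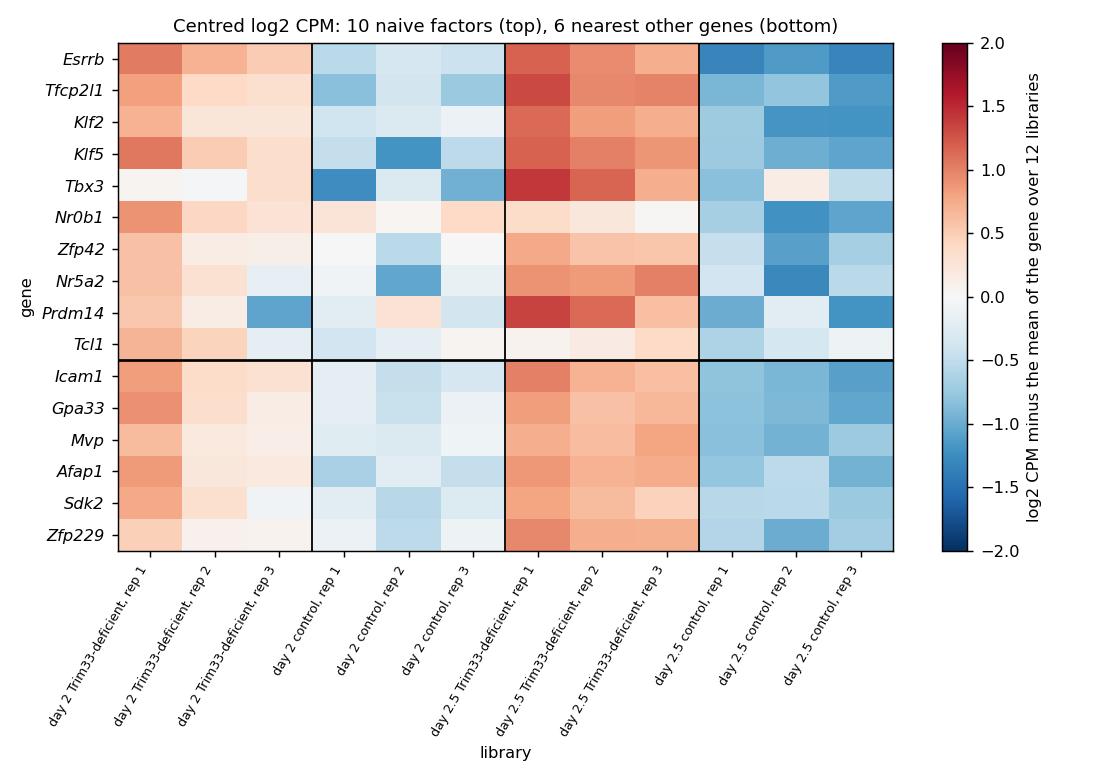
Log2 CPM minus the gene's mean over 12 libraries (colour) for the 10 naive factors and the 6 other genes nearest to their mean profile, with libraries along the horizontal axis in 4 groups of 3. The Trim33-deficient blocks are mostly above the mean, and the day 2.5 control block is below it except for Tbx3 in replicate 2.

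Other genes of the naive state, and the inputs and brakes of the network, were counted from lists. The shares over all genes, to be read beside these counts, were 5.94% rising and 3.90% falling on day 2. On day 2.5 they were 22.0% rising and 20.7% falling. Of 13 tested naive genes outside the set, 6 rose and 1 fell on day 2, and 11 rose and 1 fell on day 2.5. On day 2.5 Klf4, the Kruppel-like relative of Klf2 and Klf5, rose by 2.00 ± 0.25 on the log2 scale, Fbxo15, a gene long used as a reporter of pluripotency, by 2.00 ± 0.14, and Dppa3, a maternal factor also called Stella, by 1.18 ± 0.11 (SE; edgeR adjusted p = 1.53e-05, 8.83e-07 and 1.53e-06). The exception was Nanog, which fell on both days: it averaged 75.8 ± 9.87 CPM in Trim33-deficient and 114 ± 23.0 CPM in control bodies on day 2, and 75.8 ± 6.54 CPM in Trim33-deficient and 182.5 ± 23.5 CPM in control bodies on day 2.5 (SD, n = 3 each). Its log2 fold change was -0.58 ± 0.15 on day 2 and -1.26 ± 0.15 on day 2.5 (edgeR adjusted p = 0.0353 and 7.60e-05). The day 2 value was -0.31 without the 3 libraries that stood apart, and leaving out single libraries ended the day 2 call in 5 of 12 cases, with values between -0.69 and -0.40. Fgf4, also of this list, did not pass by edgeR on day 2, but fell at an unadjusted p under 0.05 and by DESeq2. Spic, Pramel6 and Pramel7 were too low to test.

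Of 7 core pluripotency factors tested, Nanog among them, 0 rose and 1 fell on day 2 by edgeR, with 0 rising at an unadjusted p under 0.05 or by DESeq2, and 2 rose and 2 fell on day 2.5. Pou5f1, which encodes Oct4, averaged 829 ± 24.8 CPM in Trim33-deficient and 831 ± 57.5 CPM in control bodies on day 2.5 (SD, n = 3 each; log2 fold change -0.0037 ± 0.06, edgeR adjusted p = 0.966). Sox2 rose by 0.34 ± 0.06 on day 2.5 (edgeR adjusted p = 0.000291).

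In the LIF and STAT3 pathway 5 of 12 genes rose and 0 fell on day 2, where 0 also fell at an unadjusted p under 0.05 or by DESeq2, and 7 rose and 1 fell on day 2.5. Stat3 itself averaged 67.5 ± 7.66 CPM in Trim33-deficient and 33.0 ± 2.40 CPM in control bodies on day 2 (SD, n = 3 each; log2 1.02 ± 0.10 SE, edgeR adjusted p = 2.40e-05), and rose by 1.36 ± 0.10 on day 2.5. The shared LIF receptor subunit Il6st rose by 0.52 ± 0.07 on day 2 and 0.58 ± 0.07 on day 2.5. Stat3, Klf4 and the feedback inhibitor of the pathway, Socs3, are counted here and among the naive genes.

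Of 12 genes of FGF and ERK signalling, which opposes the naive state, 2 rose on day 2, the feedback inhibitors Dusp4 (0.57 ± 0.11) and Spry2 (0.43 ± 0.12), and 7 rose and 1 fell on day 2.5. The gene that fell was the receptor Fgfr1 (-0.27 ± 0.04 on day 2.5), while Fgfr2 rose (0.70 ± 0.12). On day 2, 0 genes of this list fell by edgeR, and 1 fell at an unadjusted p under 0.05 and by DESeq2. In the Wnt and GSK3 branch 0 of 10 passed on day 2 by edgeR and by DESeq2, with 2 below 0 at an unadjusted p under 0.05, and on day 2.5 2 rose and 4 fell. Tcf7l1, the repressor of Esrrb and other naive genes that GSK3 inhibition removes, averaged 108 ± 19.4 CPM in Trim33-deficient and 182.5 ± 9.95 CPM in control bodies on day 2.5 (SD, n = 3 each; log2 -0.75 ± 0.10 SE, edgeR adjusted p = 9.15e-05), and its day 2 value was -0.25 ± 0.10 (edgeR adjusted p = 0.139).

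Among 16 factors that repress or take down the naive network 1 rose and 1 fell on day 2. On day 2.5, 6 rose and 3 fell, beside 22.0% of all genes rising and 20.7% falling. The 3 that fell on day 2.5 were Otx2 (-1.40 ± 0.30, a gene named after its value was seen), Zic2 (-0.84 ± 0.09) and Tcf7l1. Otx2 and Zic2 bind the enhancers of the primed state, and both are also counted among 12 primed epiblast markers, of which 6 fell and 1 rose on day 2 and 8 fell and 3 rose on day 2.5. Fgf15 fell by 0.70 on the log2 scale on day 2 and by 1.07 on day 2.5, Sox4 by 0.47 and 0.75. Cdh2, Lef1 and Grhl2 were the primed markers that rose on day 2.5. The Tsc2 subunit, part of the complex that restrains mTORC1 during exit from the naive state, rose by 0.22 ± 0.06 on day 2 and 0.45 ± 0.06 on day 2.5. Without the 3 libraries that stood apart, the day 2 counts were 3 that rose and 2 that fell among the factors that repress the network, and 1 that rose and 3 that fell among the primed markers.

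**Figure D5:**
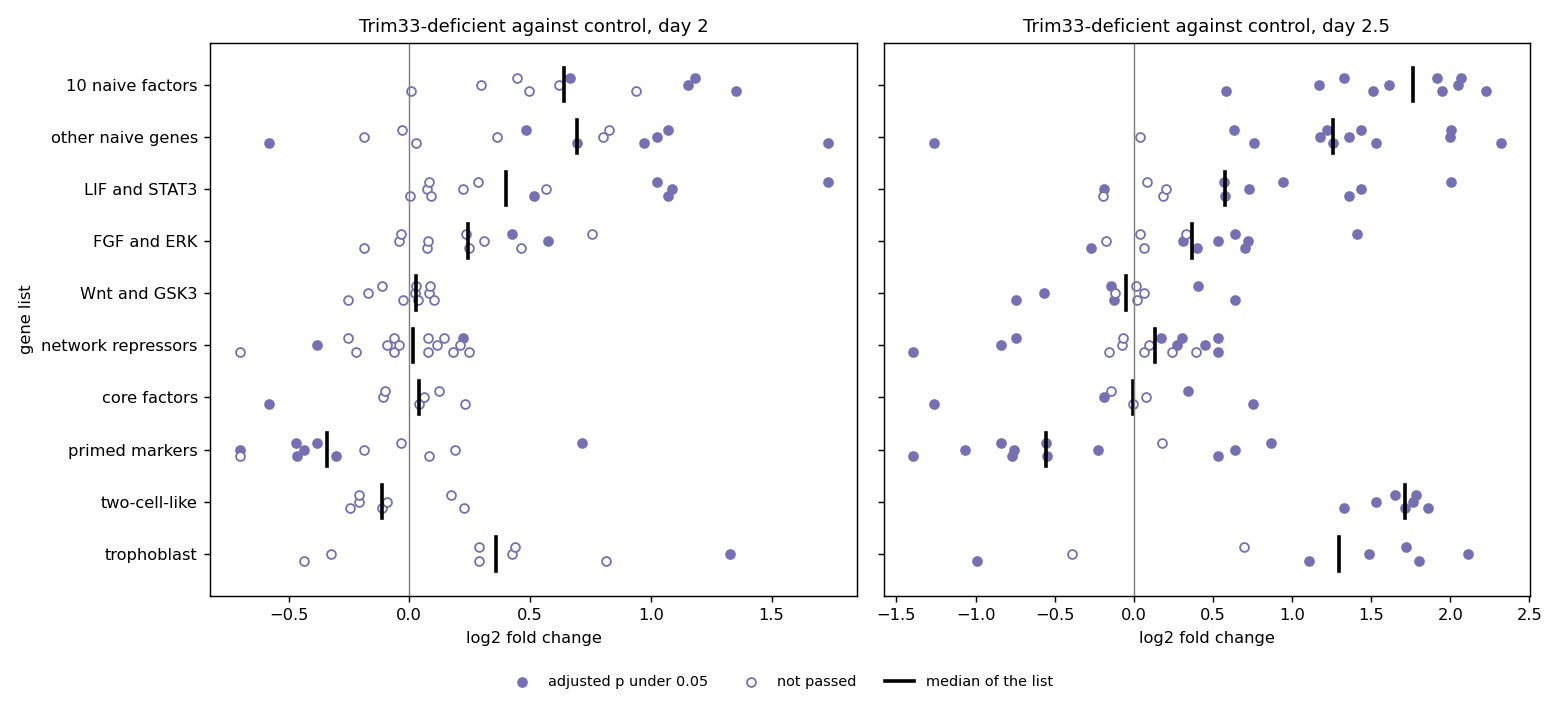
Log2 fold change of Trim33-deficient against control bodies (horizontal axis) for each tested gene of 10 lists, day 2 at the left and day 2.5 at the right; filled points have an adjusted p under 0.05 and the bar is the median of the list. The median of the 10 naive factors is 0.64 on day 2 (0.41 without the 3 libraries that stood apart) and 1.77 on day 2.5, and that of the primed markers -0.34 and -0.55.

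Of 10 partners of the naive factors 1 rose and 2 fell on day 2, beside 5.94% of all genes rising and 3.90% falling. On day 2.5, 4 rose and 3 fell, beside 22.0% and 20.7% of all genes. Ncoa3, the co-activator that Esrrb binds, averaged 300.3 ± 12.2 CPM in Trim33-deficient and 170.0 ± 11.1 CPM in control bodies on day 2.5 (SD, n = 3 each; log2 0.82 ± 0.10 SE, edgeR adjusted p = 5.52e-05). Rlim, the ubiquitin ligase that degrades Zfp42 protein, rose by 0.38 ± 0.05 on day 2 and 0.70 ± 0.05 on day 2.5. The de novo DNA methyltransferase Dnmt3b, repressed by Prdm14, fell by 0.47 and 0.77, and Dnmt3a by 0.44 and 0.23. Their partner Dnmt3l, which has no catalytic activity and is named after its values were seen, averaged 1106 ± 63.8 CPM in Trim33-deficient and 359 ± 114 CPM in control bodies on day 2.5 (SD, n = 3 each), a rise of 1.62 ± 0.29 (SE; edgeR adjusted p = 0.00206), and its day 2 value of 0.53 ± 0.28 did not pass (edgeR adjusted p = 0.289). Of 10 tested family relatives 4 rose on day 2 and 5 rose and 1 fell on day 2.5. Klf6 rose by 0.66 ± 0.07 on day 2 and 1.18 ± 0.07 on day 2.5 and Prdm1 by 0.50 ± 0.14 and 0.92 ± 0.14.

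Markers of other cell types that share naive factors were measured beside these results. Their counts, here and in the next paragraph, stand beside the same shares. These were 5.94% of all genes rising and 3.90% falling on day 2, and 22.0% rising and 20.7% falling on day 2.5. In the list of two-cell-like markers, genes of the early cleavage embryo that a few cultured stem cells express, 7 of 7 tested genes rose on day 2.5, where the summed level of the list was 175 to 191 CPM in Trim33-deficient and 45.5 to 85.1 CPM in control libraries. On day 2, 0 of them passed by edgeR, at an unadjusted p under 0.05 or by DESeq2, with sums of 27.1 to 47.3 CPM in Trim33-deficient and 25.1 to 43.4 CPM in control libraries, and Tcstv1 and Tcstv3 were at 0 throughout. Of 8 tested trophoblast genes 5 rose and 1 fell on day 2.5, with sums of 124 to 163 CPM in Trim33-deficient and 94.1 to 158 CPM in control libraries. Elf5, which was too low to test, was the only gene of this list at 0 in both groups. Tfap2c, a marker of trophoblast and of germ cells, averaged 20.8 ± 0.30 CPM in Trim33-deficient and 4.87 ± 0.97 CPM in control bodies on day 2.5 (SD, n = 3 each). On day 2, 1 trophoblast gene rose, Tfap2c.

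Germ cell markers gave 3 of 8 that rose on day 2 and 4 that rose and 1 that fell on day 2.5. The 3 on day 2 were Tfap2c, Dppa3 and Prdm1, which also rose on day 2.5. They are counted above among the trophoblast genes, the naive genes and the family relatives. Sums of the germ cell list were 160.5 to 174.5 CPM in Trim33-deficient and 132 to 145 CPM in control libraries on day 2.5. Primitive and visceral endoderm genes gave 0 of 6 on day 2 by edgeR, at an unadjusted p under 0.05 or by DESeq2, and 2 that rose and 1 that fell on day 2.5, with sums of 30.1 to 33.4 CPM in Trim33-deficient and 34.0 to 44.4 CPM in control libraries. Fibroblast markers gave 1 of 5 that fell on day 2 and 1 that rose and 3 that fell on day 2.5, with sums of 23.4 to 26.2 CPM in Trim33-deficient and 36.2 to 45.1 CPM in control libraries. The part of these cell types in the levels of the naive factors was not tested. Oct4, Sox2, Sall4, Utf1 and Lin28a, the defining markers of pluripotent cells, were expressed in all 12 libraries.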

How the data were processed

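RNA-seq was deposited as 1 table of counts per library for 12 libraries in 4 groups of 3. Per the submitters' processing notes the authors used STAR, HTSeq, DESeq and mm9, named with no versions or roles. No source used here gives the strand setting, the annotation or the handling of multi-mapping reads. Per the labels' protocols total RNA was extracted and sequenced on an Illumina instrument.

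Each deposited table held raw counts for 24015 genes and 5 closing rows. The row of reads without a feature held 55.9% to 60.5% of the table's total, and the closing rows stayed out of library sizes and tests. In day 2.5 Trim33-deficient replicate 1, 27 gene names that a spreadsheet had turned into dates were restored.

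Counts were tested with edgeR 4.0.16 in R 4.3.3 (limma 3.58.1): TMM factors, filterByExpr, a robust quasi-likelihood fit to all 12 libraries, 1 mean per group, 8 residual degrees of freedom, and Benjamini-Hochberg adjustment over 14356 genes at 0.05. SE is the absolute log2 fold change over the square root of F. Intervals are 95%, exact Poisson ones for single libraries. The steps were tested on simulated data. Profile distances used log2 CPM with a prior count of 2. Alternatives were other scaling factors, other filters, DESeq2 1.42.0, replicate blocks, fewer groups in the fit and left-out libraries.

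The 10 genes and all lists were chosen with earlier results of these data known. Of each other list, counts are given and up to 4 genes with the smallest adjusted p per genotype comparison may be named. Overlapping genes were looked up in GENCODE M21 by name. Promoters came from RefSeq on GRCm38.p6 and were not joined to mm9 coordinates.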

Additional observations from a re-analysis of the deposited data

Results flagged for a closer look

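The effect of Trim33 loss differed between the days for 3 of the 10 genes by the test of the difference itself. The day 2.5 effect exceeded the day 2 effect by 1.25 for Klf2, by 1.04 for Esrrb and by 0.90 for Tfcp2l1 on the log2 scale (edgeR quasi-likelihood adjusted p = 0.0179, 0.0213 and 0.0441). Among 21 alternative analyses the difference stayed past the threshold in 17 for Klf2, 18 for Esrrb and 10 for Tfcp2l1.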

How the results depend on the processing

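On day 2.5 the rise of 9 of the 10 genes, all but Tcl1, held under all 22 alternatives, as did those of Esrrb, Tfcp2l1 and Klf5 on day 2. Leaving out 1 library at a time gave 3 to 5 of the 10 on day 2 and 9 to 10 on day 2.5, 0 to 6 for time in Trim33-deficient bodies, 2 to 4 for time in control bodies and 0 to 6 for the interaction. For time in Trim33-deficient bodies 7 passed without the 3 libraries that stood apart. For the interaction 5 passed by DESeq2 and 8 without the 3 libraries.

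The replicate numbers were not taken to pair the samples, since not every same-numbered pair of libraries had a correlation of deviations over 0.1. Between the genotypes the correlations were 0.075, 0.17 and -0.079 on day 2 and between -0.033 and -0.0094 on day 2.5. Between the days they were 0.18, -0.018 and 0.088 in Trim33-deficient bodies and 0.36, 0.45 and 0.032 in control bodies, so control replicates 1 and 2 deviated alike on both days. With the replicate number as a block over all groups, 5 of the 10 passed on day 2, 9 on day 2.5, 7 for time in Trim33-deficient bodies, 4 for time in control bodies and 6 for the interaction, and 1169 genes in all passed the interaction. With the block within each day, 5, 9 and 6 passed on day 2, on day 2.5 and for the interaction. The gene added on day 2 was Zfp42, at 0.46 under both blocks (edgeR adjusted p = 0.0101 over all groups and 0.0306 within each day), and the one added for time in control bodies was Zfp42 at -0.55 (edgeR adjusted p = 0.00284).

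Over all genes, single left-out libraries gave 514 to 1617 calls on day 2 (1413 with all libraries), 4794 to 6571 on day 2.5 (6143), 1101 to 2780 for time in Trim33-deficient bodies (2300), 1235 to 2393 for time in control bodies (2313) and 119 to 1217 for the interaction (575). The lowest day 2 count came without Trim33-deficient replicate 1. Without the 3 libraries that stood apart, 3741 genes passed for time in Trim33-deficient bodies and 1967 for the interaction, and 1384 passed for time in control bodies with only those groups in the fit. The cause of these shifts was not tested.

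Signs turned only for values that did not pass. Prdm14 on day 2 was -0.010 with upper-quartile factors, -0.043 without the 3 libraries and -0.30 to 0.44 with single libraries left out. For time in Trim33-deficient bodies Tcl1 was 0.071 without the 3 libraries and -0.33 to 0.068 with single libraries left out, and Nanog was 0.0057 with the block over all groups and -0.097 to 0.079 with single libraries left out. The interaction of Tcl1 ran between -0.15 and 0.26 with single libraries left out. For Prdm14, with 6 to 40 reads per library, depth limits what can be seen.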
